A study of Mus musculus with 32 samples.

Results

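The mouse major histocompatibility complex (MHC), named H2, was examined in RNA sequencing of brain arteries. Its members were chosen by name only, as the genes of the deposited count table whose mouse symbol begins with H2-, and they numbered 45 of 55357 genes. All 45 lay on chromosome 17, the chromosome that also carries Notch3, at 1.81 to 5.31 Mb from Notch3 on the GRCm38 build. They comprised 2 classical class I genes (class Ia), 29 nonclassical class I genes (class Ib, with 9 in the Q group, 6 in the T group and 14 in the M group), 12 class II genes and 2 others. The 2 others were H2-K2, a transcribed pseudogene, and H2-Ke6, an enzyme gene that does not encode an MHC molecule. H2-Bl was placed in the Q group by its symbol, although its position was within the T group, between H2-T22 and the pseudogene H2-T-ps. The annotation listed 34 of the 45 as protein coding, 6 as unprocessed pseudogenes and 4 (H2-Bl, H2-T10, H2-Q5 and H2-Ea-ps) as polymorphic pseudogenes, which are intact in some mouse strains and broken in others.

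Each of 4 groups held 8 mice with 1 library per mouse. Notch3-/- mice, which carry an inactivated Notch3 gene, and Notch3+/+ mice were 3 months old. TgNotch3R169C mice, a model of the small vessel disease CADASIL with a mutant rat Notch3 transgene beside the 2 mouse copies, and their wild-type (WT) controls were 12 months old. The study's methods state that the lines were backcrossed on C57BL/6 at least 6 times, and the labels give neither the sex nor the H2 haplotype of any mouse. The inactivated allele and every H2 gene are on the same chromosome, whereas the study's methods place the transgene on the X chromosome.

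Class Ia molecules pair with beta-2 microglobulin and present peptides made inside the cell to CD8 T cells, and nearly all nucleated cells express them. Class Ib molecules resemble them but vary less between individuals, and several bind specialized ligands or receptors of natural killer and gamma delta T cells. Class II molecules are restricted mainly to macrophages, dendritic cells and B cells, present peptides taken up from outside to CD4 T cells, and depend on the coactivator CIITA. H2 is among the most polymorphic regions of the mouse genome. Strains carry different H2 haplotypes, some of which lack whole genes, and the reference strain C57BL/6J carries haplotype b.

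The class Ib genes arose by duplication, so a read from one can match another. To show how alike the genes are on which the results turn, the same 100 coding bases are given for H2-T22, H2-T10, H2-Bl and H2-T24, in the exon that begins the peptide-binding part (exon 3 of the H2-T22 transcript, exon 2 of the others). The sequences are those of GENCODE vM21 on GRCm38, read 5′ to 3′, with lower case for bases equal to H2-T22 and capitals for bases that differ from it.
H2-T22, chr17:36042024-36042123, minus strand: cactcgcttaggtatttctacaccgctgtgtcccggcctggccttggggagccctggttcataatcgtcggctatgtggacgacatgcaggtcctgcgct
H2-T10, chr17:36120771-36120870, minus strand: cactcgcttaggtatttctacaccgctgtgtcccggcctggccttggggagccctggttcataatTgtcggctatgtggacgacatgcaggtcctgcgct
H2-Bl, chr17:36083861-36083960, minus strand: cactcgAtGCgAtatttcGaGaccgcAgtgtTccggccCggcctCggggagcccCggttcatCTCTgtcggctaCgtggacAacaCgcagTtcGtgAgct
H2-T24, chr17:36017433-36017532, minus strand: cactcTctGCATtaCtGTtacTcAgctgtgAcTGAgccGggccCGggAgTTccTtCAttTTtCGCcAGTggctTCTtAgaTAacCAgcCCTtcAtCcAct
In this stretch H2-T10 differed from H2-T22 at 1 base, H2-Bl at 21 and H2-T24 at 45. Over all aligned coding bases, identity to H2-T22 was 97.3% for H2-T10, 72.2% for H2-Bl and 64.8% for H2-T24. Counted over whole transcripts, 50.1% of the 50-base windows of H2-T10 and 58.5% of those of H2-T22 also occurred in another gene, and with 100-base windows the shares were 29.7% and 38.1%. For H2-T24 the shares were 3.2% and 0%, and for H2-Bl 11.8% and 0.4%. Reads could therefore be confused between H2-T10 and H2-T22 far more readily than for H2-T24 or H2-Bl. The classical class II genes stood apart, with 0% for H2-Ab1 and H2-Eb1 and 0.6% for H2-Aa at 50 bases. H2-Ke6 was at the other end, since 96.3% of its 50-base windows also occurred in the overlapping gene Gm20427, and its counts cannot be assigned to it alone.

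**Figure D1:**
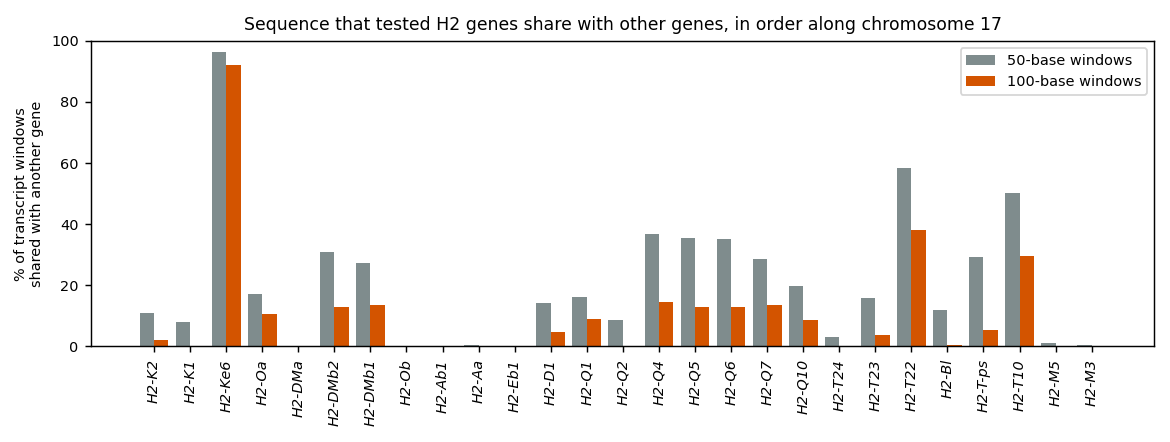
Share of the windows of each tested H2 transcript (in %) that also occur in another gene, for windows of 50 and 100 bases, with genes in their order along chromosome 17. H2-T22 (58.5% at 50 bases) and H2-T10 (50.1%) shared more than the other T genes, and H2-Aa, H2-Ab1 and H2-Eb1 shared at most 0.6%.

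MHC promoters of both classes share short regulatory elements. RefSeq promoter windows of 250 bases before to 50 after the start of the gene (GRCm38.p6) were at hand for 32 of the 45 genes. GATTGG is the reverse of a CCAAT box and the core of the MHC Y box. It was present on either strand in 26 of the 32 genes (81.2%) and in 16.1% of 32851 windows of all genes. For each motif an H2 gene was counted if any of its windows matched, whereas the share over all genes is of single windows. By class, GATTGG was found in 8 of 8 class II and 2 of 2 class Ia genes with a window. Among class Ib genes with a window, it was found in 3 of 5 Q, 3 of 4 T and 9 of 12 M genes. GATTCCC, part of the class I enhancer that NF-kappa B proteins bind, was present in 5 of 32 (H2-K1, H2-D1, H2-Q6, H2-Q7 and H2-M3) and in 3.36% of all windows. The core of the interferon-stimulated response element was searched in a strict form, GAAA, any 2 bases and GAAA. This form was present in 2 of 32 (H2-T22 and H2-T23) and in 3.44% of all windows. Variants of these letters were not searched, so a promoter without a match may still hold such an element. The motifs were searched on both strands and counted separately even where matches shared letters, and a match describes the letters and not a bound site. The 130 bases before the start are shown for 3 class II and 3 class I genes, to compare where the motifs fall, with matches to any of the 3 motifs in capitals (CCAATC is GATTGG on the other strand, and matches elsewhere in the window are not shown).
H2-Aa, chr17:34287824-34287953, minus strand: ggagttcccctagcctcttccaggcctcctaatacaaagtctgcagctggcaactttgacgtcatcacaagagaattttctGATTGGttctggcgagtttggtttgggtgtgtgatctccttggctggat
H2-Eb1, chr17:34305737-34305866, plus strand: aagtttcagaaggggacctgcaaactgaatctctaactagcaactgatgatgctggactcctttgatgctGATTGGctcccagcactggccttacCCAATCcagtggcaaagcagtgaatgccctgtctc
H2-DMb1, chr17:34153061-34153190, plus strand: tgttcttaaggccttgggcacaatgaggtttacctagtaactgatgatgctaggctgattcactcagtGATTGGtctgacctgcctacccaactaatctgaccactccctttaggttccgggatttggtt
H2-K1, chr17:34000348-34000477, minus strand: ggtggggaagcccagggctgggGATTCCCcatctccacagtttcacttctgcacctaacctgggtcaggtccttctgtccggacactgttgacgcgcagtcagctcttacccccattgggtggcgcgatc
H2-D1, chr17:35262964-35263093, plus strand: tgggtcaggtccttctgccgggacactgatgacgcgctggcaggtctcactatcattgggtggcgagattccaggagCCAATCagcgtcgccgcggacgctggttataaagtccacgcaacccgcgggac
H2-T23, chr17:36032702-36032831, minus strand: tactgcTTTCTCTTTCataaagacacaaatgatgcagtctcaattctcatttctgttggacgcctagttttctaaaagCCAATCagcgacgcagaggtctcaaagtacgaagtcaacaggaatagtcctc
No window was at hand for H2-T24, H2-Bl, H2-T10, H2-Ab1 or H2-Q1.

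Levels are in CPM, the count of a gene relative to the total of its library after TMM scaling of all 32, whose total counts ranged from 20289487 to 54481934. The H2 genes took 0.154% to 0.342% of the counts of a library. Notch3 was lower in Notch3-/- mice, with 13.7 to 18.5 CPM (median 16.4) against 65.8 to 98.1 (median 82.8) in Notch3+/+ mice. In TgNotch3R169C mice it was 108 to 219 (median 186) against 60.1 to 85.0 (median 70.9) in WT mice, and reads of the rat transgene cannot be separated from those of the mouse gene. Both sets of values were in the direction of their labels. Replicates 1 to 4 of every group had Xist levels of at most 2.404 CPM and replicates 5 to 8 had at least 1440, and Xist is transcribed from the inactive X chromosome of female cells. Each group therefore held 4 Xist-low and 4 Xist-high libraries.

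Class Ia and class II genes dominated the H2 signal of brain arteries. Summed over the class, class Ia levels had medians of 777 CPM in Notch3+/+, 859 in Notch3-/-, 864 in WT and 919 in TgNotch3R169C mice. Class II levels had medians of 820, 730, 651 and 729 CPM in the same order. The Q group, T group and M group were lower, with medians of 194, 156 and 17.4 CPM in Notch3+/+ mice. Per kilobase of exon, and averaged over the 32 mice, H2-D1 (178 CPM per kb) and H2-K1 (141) were highest, followed by the class II chains H2-Eb1 (116), H2-Ab1 (91.9) and H2-Aa (74.5). H2-Q1 (36.8), H2-T23 (36.2), which encodes the ligand Qa-1 of CD94/NKG2A receptors, and H2-Q4 (29.2) came next. H2-M3, which presents N-formylated bacterial peptides, reached 10.8 CPM per kb and H2-T22 10.3. At the bottom, 4 genes had no read in any library (H2-Pa, H2-Ea-ps, H2-M10.1 and H2-M10.4) and 14 had under 100 reads in all 32 libraries together, of which 10 were M group genes. Counting error alone allows a gene without a read in a library up to 3 counts, which is 0.0551 CPM in the deepest library and 0.148 in the shallowest.

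**Figure D2:**
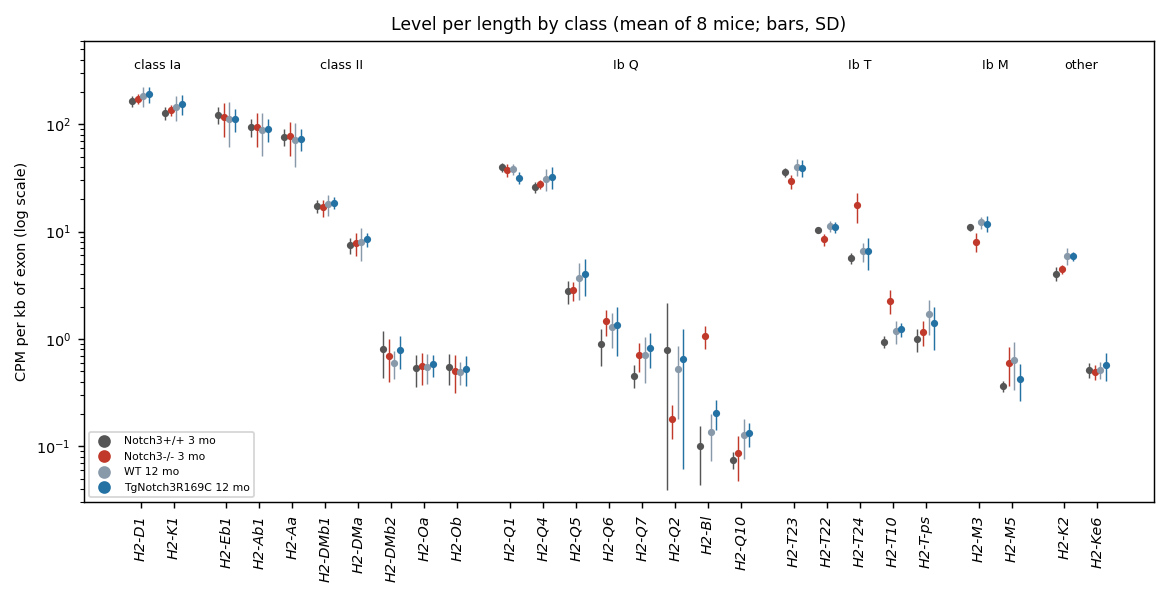
Level of each tested H2 gene per kilobase of exon (CPM per kb, log scale) by class, as mean and SD (bars) of 8 mice per group, with the lower bar cut short where the SD reached the mean, as for H2-Q2 in Notch3+/+ mice. H2-D1 (178 CPM per kb over all mice) and H2-K1 (141) were highest, and H2-Bl, H2-T24 and H2-T10 are set apart in Notch3-/- mice.

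Of the genes without a read, H2-Ea-ps bears on the haplotype. Haplotype b, that of C57BL/6J, carries a defective Ea gene and makes no Ea transcript, and strains of several other haplotypes, such as k and d, express it. H2-Ea-ps had 0 counts in each of the 32 libraries, while its neighbor H2-Eb1 had 147 to 451 CPM. No library therefore had a read of an expressed Ea transcript, and this value does not tell haplotype b from other haplotypes that lack Ea. The haplotype of the mice was not given in the sources used here, and reads were counted against the reference strain alone, so the part of haplotype in any H2 level below was not tested.

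In Notch3-/- mice, edgeR called 3 class Ib genes higher and no H2 gene lower. H2-Bl rose 10.4-fold, H2-T24 3.09-fold and H2-T10 2.42-fold. They were 3 of the 27 H2 genes that passed the filter on low counts, and 0.649% of the 17714 genes tested were called in this comparison (0.198% called higher). Genes were called at a Benjamini-Hochberg adjusted p below 0.05 in the edgeR quasi-likelihood test over all genes. By class, the calls were 2 of 5 tested T genes, 1 of 8 Q genes, and 0 of 2 class Ia, 0 of 2 M, 0 of 8 class II and 0 of 2 other genes. The median log2 fold change of the 27 was 0.06, against 0.00 over all genes tested, with 16 above 0 and 11 below. H2-Bl passed the filter through its Notch3-/- libraries, since it passed in no comparison without them, so its call is partly fixed by the filter, and 2 of the other 26 tested were called. The 18 untested genes did not exceed 0.707 CPM in any library.

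H2-Bl, a polymorphic pseudogene of the class Ib type, showed the largest change. Notch3+/+ mice had 0.0625 to 0.378 CPM (median 0.156), from 2 to 14 reads, against 0.908 to 2.18 (median 1.85), from 32 to 80 reads, in mutants. No Notch3-/- mouse overlapped a Notch3+/+ mouse. The log2 fold change was 3.38 (SE 0.274, 95% CI 2.80 to 3.96, adjusted p = 3.66e-06, edgeR). In the 12-month groups H2-Bl stayed between 0.109 and 0.573 CPM, below the lowest Notch3-/- mouse.

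H2-T24 was the most abundant of the 3. Its levels were 9.74 to 14.1 CPM (median 12.8) in Notch3+/+ mice and 27.2 to 62.2 (median 33.5) in Notch3-/- mice. The groups did not overlap, and the Notch3-/- mice were spread more widely, with replicate 4 highest. The log2 fold change was 1.63 (SE 0.156, 95% CI 1.30 to 1.96, adjusted p = 2.83e-05, edgeR). It was 1.62 in Xist-low libraries alone, where the call was lost with 4 mice per group (adjusted p = 0.0891, edgeR), and 1.64 in Xist-high libraries alone.

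H2-T10, whose product, where intact, is like that of H2-T22 a ligand of gamma delta T cell receptors, had 2.54 to 3.93 CPM (median 3.21) in Notch3+/+ mice and 5.01 to 10.4 (median 8.22) in Notch3-/- mice. These groups did not overlap either. The log2 fold change was 1.28 (SE 0.144, 95% CI 0.97 to 1.58, adjusted p = 0.000188, edgeR). It was 1.58 in Xist-low and 0.93 in Xist-high libraries, and the call was lost in the latter (adjusted p = 0.0992, edgeR). H2-T22 holds 30.3% of its 50-base windows, and its reads cannot be fully told apart from those of H2-T22.

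The levels of H2-T22, H2-T23 and H2-M3 were in the other direction without passing the test. H2-T22 had 32.3 to 37.8 CPM (median 35.9) in Notch3+/+ and 25.4 to 35.2 (median 27.6) in Notch3-/- mice, and the estimate was -0.29 (SE 0.0678, adjusted p = 0.0654, edgeR). H2-M3 had 13.3 to 17.2 CPM (median 16.2) and 8.73 to 15.9 (median 11.4), with an estimate of -0.44 (SE 0.102, adjusted p = 0.0599, edgeR). For each gene 6 of 8 Notch3-/- mice were below every Notch3+/+ mouse, the exceptions being replicates 4 and 7 for H2-T22 and replicates 1 and 7 for H2-M3. H2-T23 had 92.6 to 121 CPM (median 105) and 70.0 to 108 (median 80.6), with overlapping groups, and an estimate of -0.28 (SE 0.0826, adjusted p = 0.198, edgeR). DESeq2 and limma voom called H2-M3 and H2-T22 lower, and DESeq2 called H2-M5 higher (1.28% of 21859 genes were called by DESeq2 and 0.638% of 17714 by limma voom). H2-Q6 (log2 fold change 0.70, adjusted p = 0.238) and H2-Q7 (log2 fold change 0.63, adjusted p = 0.194), which encode Qa-2 molecules, did not pass the edgeR test, nor did H2-M5 (log2 fold change 0.71, adjusted p = 0.131). The estimate for H2-Q2 was -2.10 with an SE of 0.735 (adjusted p = 0.393, edgeR), and Notch3+/+ replicate 5 stood at 8.83 CPM against a median of 0.496 in its group.

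**Figure D3:**
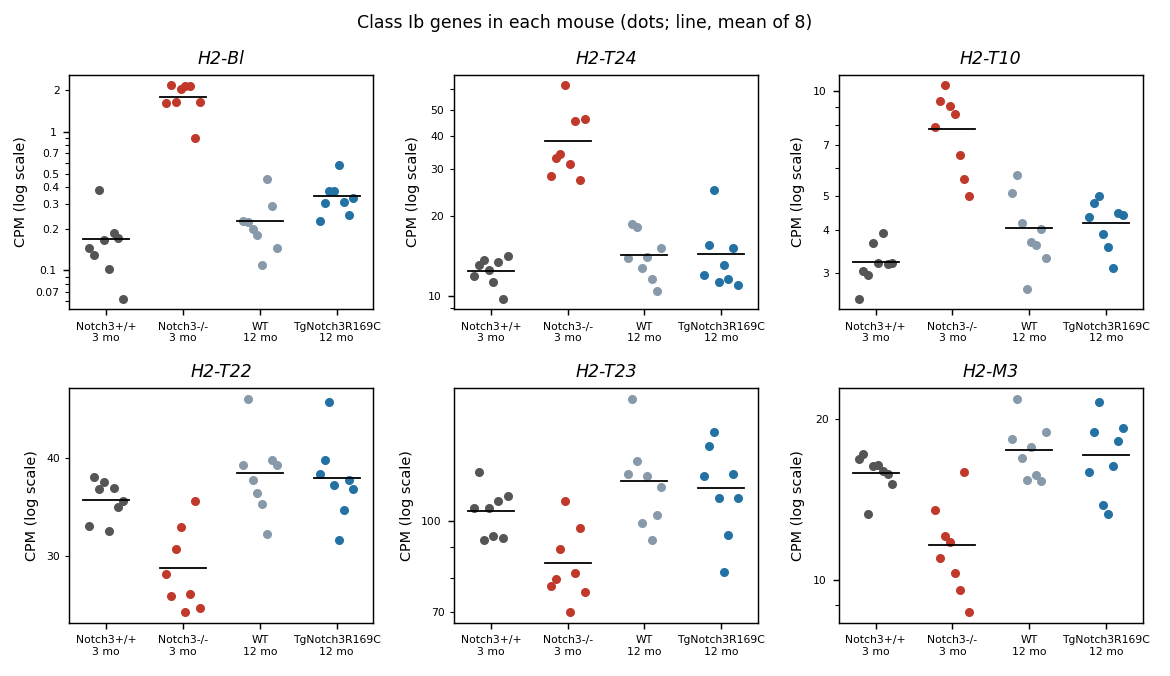
Levels of 6 class Ib genes in each mouse (points, CPM, log scale; line, mean of 8 mice) in the 4 groups. Notch3-/- mice lie above every Notch3+/+ mouse for H2-Bl, H2-T24 and H2-T10, and mostly below them, with overlap, for H2-T22, H2-T23 and H2-M3.

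Replicate 7 of the Notch3-/- group lay nearest the controls for several of these genes. It had the lowest H2-Bl (0.908 CPM) and H2-T24 (27.2) of its group and the highest H2-M3 (15.9) and H2-T22 (35.2). Its Notch3 level, 15.5 CPM, was within the range of its group. Without it, 5 H2 genes were called, and H2-M3 (log2 fold change -0.52) and H2-T22 (-0.33) joined the 3, while 0.439% of 17785 genes were called.

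The classical genes did not pass the test in Notch3-/- mice. H2-K1 had 300 to 479 CPM (median 370) in Notch3+/+ and 342 to 473 (median 413) in mutants, and the estimate was 0.09 (95% CI -0.09 to 0.28, adjusted p = 0.901, edgeR). H2-D1 had 351 to 506 (median 408) and 370 to 508 (median 446), a change of 0.08 (95% CI -0.09 to 0.24, adjusted p = 0.92, edgeR). For both, the 2 groups covered nearly the same range. Of the class II chains, H2-Aa had 232 to 369 CPM (median 280) in Notch3+/+ and 191 to 443 (median 260) in Notch3-/- mice, a change of 0.02 (95% CI -0.37 to 0.41, adjusted p = 0.997, edgeR). H2-Ab1 (-0.01, 95% CI -0.39 to 0.38) and H2-Eb1 (-0.05, 95% CI -0.44 to 0.34) had similar estimates and intervals. The intervals of the class II chains were wider than those of class Ia, and the Notch3-/- mice reached both lower and higher than the Notch3+/+ mice.

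The accessory class II genes and the remaining Q genes were closer to the detection limit or overlapped just as widely. H2-DMa and H2-DMb1, whose products exchange peptides on class II molecules, had 18.1 to 31.4 CPM (median 25.5) and 23.8 to 36.2 (median 28.3) in Notch3+/+ mice. In Notch3-/- mice their medians were 25.1 and 26.5, with log2 fold changes of 0.06 and -0.05. H2-DMb1 shares 27.2% of its 50-base windows with H2-DMb2, which was far lower at 0.543 to 2.56 CPM (median 1.26) in Notch3+/+ mice. H2-Oa and H2-Ob, whose products restrain H2-DM, had medians of 0.695 and 2.78 CPM in Notch3+/+ mice and of 0.676 and 2.26 in Notch3-/- mice. H2-Q4 was at 58.0 to 79.8 CPM (median 66.9) and 63.1 to 85.2 (median 72.7), and H2-Q5 at medians of 4.06 and 4.40. The mutant range covered the control median for each of these genes.

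The class II chains were also compared between Xist-low and Xist-high libraries. Among Notch3-/- mice, H2-Aa was 300 to 443 CPM in the 4 Xist-low libraries and 191 to 220 in the 4 Xist-high libraries, with no overlap. The 12-month WT mice did not overlap either, at 228 to 558 (Xist-low) and 212 to 224 (Xist-high). Notch3+/+ mice (249 to 369 and 232 to 335) and TgNotch3R169C mice (237 to 368 and 196 to 349) did overlap, and in all 4 groups the mean of the Xist-low libraries was the higher one. The log2 fold change of Notch3-/- against Notch3+/+ mice was 0.30 for H2-Aa in Xist-low and -0.38 in Xist-high libraries, a difference of -0.69 (SE 0.202, unadjusted p = 0.00405, adjusted p = 0.704, edgeR). For H2-Eb1 the changes were 0.24 and -0.46, a difference of -0.71 (SE 0.21, adjusted p = 0.704, edgeR). H2-K1 had 0.29 and -0.10, a difference of -0.40 (SE 0.15, adjusted p = 0.704, edgeR). None of the 27 H2 genes passed the adjusted test of this difference, which 0.0169% of all genes passed. An unadjusted p below 0.05 was found for 9 of the 27, against 6.94% of all genes. These genes, among them H2-Aa, H2-Ab1 and H2-Eb1, were measured in the same mice and are not separate observations. The 2 shares therefore cannot show an excess. In the TgNotch3R169C comparison, the same difference was called for 0 of 26 H2 genes (0.0226% of all genes), and an unadjusted p below 0.05 was found for 0 of the 26, against 5% of all genes. The split by Xist was added after the data were seen.

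**Figure D4:**
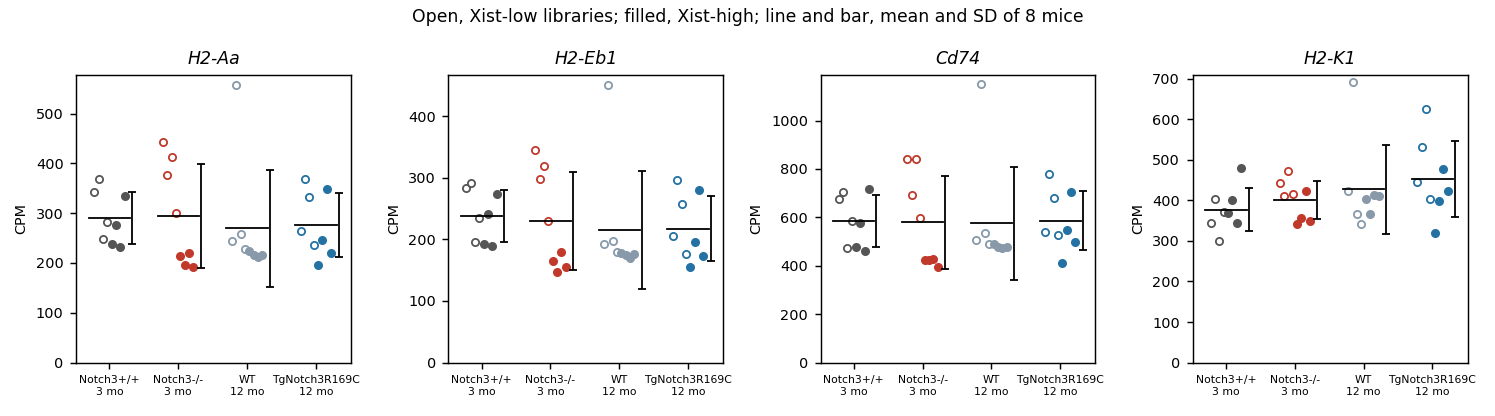
Levels (CPM) of H2-Aa, H2-Eb1, Cd74 and H2-K1 in each mouse of the 4 groups, with open circles for Xist-low and filled circles for Xist-high libraries, and mean and SD of 8 mice. In Notch3-/- mice the Xist-low libraries (H2-Aa, 300 to 443 CPM) lie above the Xist-high ones (191 to 220), as they do in WT mice (228 to 558 against 212 to 224), and WT replicate 2 (558 CPM) lies far above its group.

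By position, the 3 H2 genes that rose in Notch3-/- mice lay close together, at 3.84 Mb (H2-T24), 3.91 Mb (H2-Bl) and 3.95 Mb (H2-T10) from Notch3. The H2 genes between them (H2-T23, H2-T22 and H2-T-ps) did not pass the test, whereas some genes of the region without an H2- symbol did. The stretch from H2-D1 to H2-T3, whose ends were chosen after these values were seen, held 47 tested genes, of which 11 were called (23.4%), 10 of them higher. On the whole of chromosome 17, this stretch included, 25 of 861 were called (2.9%). From H2-K2 to H2-Ea-ps, which holds H2-K1 and the class II genes and is nearer to Notch3, 0 of 21 were called, 0 of 55 between H2-Ea-ps and H2-D1, and 0 of 12 beyond H2-T3 up to the last H2 gene. The 8 called genes of the stretch without an H2- symbol were Cdsn, Gm20442, A930015D03Rik, Gm19684, Gm10499, 2410017I17Rik and Gm8909, which were higher, and 2310061I04Rik, which was lower. In the TgNotch3R169C comparison only 41 genes of the stretch passed the filter. H2-Bl, Gm20442, 2410017I17Rik and Gm8909 were not tested there or between the control groups, and passed through their Notch3-/- libraries. Their calls, and so the share of the stretch, are partly fixed by the filter. A930015D03Rik lies on the strand opposite H2-T24, H2-T23 and H2-T22 and holds 89.9% of its 50-base windows in common with H2-T22. Its level rose in Notch3-/- mice (log2 fold change 2.60) where that of H2-T22 did not. The strand setting of the count is not given in the sources used here, so reads of overlapping genes on opposite strands may not be told apart.

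**Figure D5:**
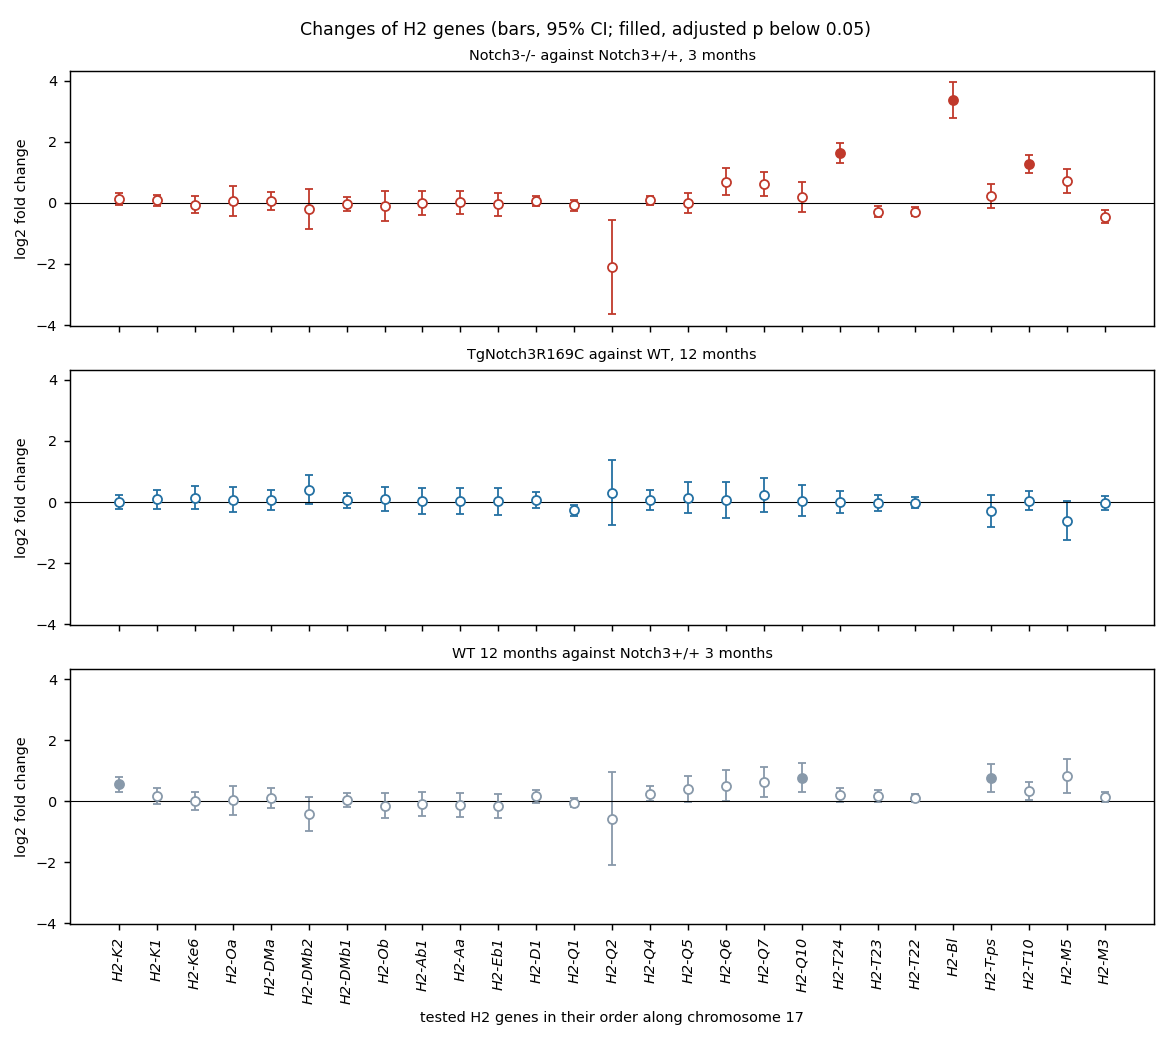
Log2 fold change with 95% CI of each tested H2 gene, in order along chromosome 17, for Notch3-/- against Notch3+/+ mice, TgNotch3R169C against WT mice, and WT against Notch3+/+ mice, filled where the adjusted p was below 0.05. H2-T24 (1.63), H2-Bl (3.38) and H2-T10 (1.28) are called in the first panel, none in the second, and H2-K2, H2-Q10 and H2-T-ps in the third.

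In TgNotch3R169C mice, no H2 gene was called against WT mice. The 26 tested had a median log2 fold change of 0.05, against -0.01 over all genes tested, and 0.113% of 17731 genes were called. DESeq2 and limma voom also called 0, and 1 of the 26, H2-Q1, had an unadjusted p below 0.05 in edgeR, as did 7.27% of all genes. H2-Q1 had 89.6 to 134 CPM (median 106) in WT and 77.5 to 109 (median 88.3) in TgNotch3R169C mice, with overlap, and an estimate of -0.27 (SE 0.084, adjusted p = 0.512, edgeR). H2-T24 had 10.4 to 18.6 CPM (median 13.9) and 11.0 to 25.0 (median 12.5), a change of 0.00 (95% CI -0.36 to 0.36). The highest of these mice, TgNotch3R169C replicate 3, was still below the lowest Notch3-/- mouse. H2-T10 had 2.70 to 5.75 CPM (median 3.86) and 3.10 to 4.99 (median 4.38), a change of 0.05 (95% CI -0.26 to 0.36).

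The class Ia and class II chains overlapped between the 12-month groups as well. H2-K1 had 343 to 691 CPM (median 406) in WT and 320 to 625 (median 434) in TgNotch3R169C mice, a change of 0.09 (95% CI -0.22 to 0.40, adjusted p = 0.908, edgeR). H2-D1 had 399 to 700 (median 457) and 357 to 650 (median 485), a change of 0.06 (95% CI -0.20 to 0.32). H2-Aa had 212 to 558 (median 226) and 196 to 368 (median 256), a change of 0.04 (95% CI -0.39 to 0.47). WT replicate 2 was the highest library for H2-K1, H2-D1, H2-Aa, H2-Ab1 and H2-Eb1, and also for B2m (1170 CPM) and Cd74 (1150 CPM). All 8 tested class II genes had estimates above 0 in TgNotch3R169C mice (median 0.07), with no call. They come from the same mice and are not 8 separate observations. The sign turned in 6 of 27 alternatives for H2-Aa, 7 for H2-Ab1 and 9 for H2-Eb1. It turned in 2 for H2-Ob, 1 for H2-Oa, 1 for H2-DMa, and 0 for H2-DMb1 and H2-DMb2.

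The changes of the 2 mutants were then compared directly, as the change in TgNotch3R169C mice minus that in Notch3-/- mice in a fit of all 4 groups. The difference was called for the same 3 of 27 tested H2 genes, all lower, while 0.35% of 18555 genes were called (0.0862% lower). It was -2.85 for H2-Bl (SE 0.384, adjusted p = 5.88e-05, edgeR), -1.63 for H2-T24 (SE 0.236, adjusted p = 0.000213, edgeR) and -1.23 for H2-T10 (SE 0.206, adjusted p = 0.00159, edgeR). H2-Bl entered this fit, too, only through its Notch3-/- libraries, so its call is partly fixed by the filter, and 2 of the other 26 were called. For H2-K1 it was 0.00 (95% CI -0.36 to 0.35) and for H2-Aa 0.02 (95% CI -0.56 to 0.60). The mutants also differ in age, line and control group, which cannot be told apart from the mutation in this difference.

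The 2 control groups differ in age, mouse line and cohort at once. Between them 3 of 26 H2 genes were called, all higher in 12-month WT mice, while 7.92% of 17643 genes were called (3.87% higher). H2-K2 had 5.71 to 8.43 CPM (median 7.36) in Notch3+/+ and 7.74 to 13.1 (median 9.37) in WT mice, with slight overlap (log2 fold change 0.55, SE 0.118, adjusted p = 0.011, edgeR). The pseudogene H2-T-ps had 0.781 to 1.58 (median 1.03) and 1.02 to 3.08 (median 1.71), and a change of 0.76 (SE 0.212, adjusted p = 0.0371, edgeR). H2-Q10, known as a secreted class Ib molecule of liver, had 0.267 to 0.437 (median 0.316) and 0.311 to 0.913 (median 0.483), and a change of 0.77 (SE 0.228, adjusted p = 0.0489, edgeR). Both overlapped between the groups. The call of H2-Q10 was lost under 20 of 26 alternatives and that of H2-T-ps under 15 of 27, the replicate block among them for both, whereas that of H2-K2 was lost under 1 of 27. The 3 genes that rose in Notch3-/- mice were not called here, and H2-T10 had a change of 0.33 (adjusted p = 0.155, edgeR). Some libraries held choroid plexus RNA. Its 5 markers summed to 308 to 647 CPM (median 342) in Notch3+/+, 224 to 24700 (median 268) in Notch3-/-, 261 to 25300 (median 4690) in WT and 251 to 14200 (median 308) in TgNotch3R169C mice, and their part in the H2 values of any of these comparisons was not tested. All 8 smooth muscle markers were lower in WT than in Notch3+/+ mice (median log2 fold change -0.81), and their part was not tested either. This comparison shares the Notch3+/+ mice with the Notch3-/- comparison and the WT mice with the TgNotch3R169C comparison.

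The genes that load and regulate MHC molecules did not pass the test in either mutant. Over all genes tested, 0.649% were called in Notch3-/- and 0.113% in TgNotch3R169C mice. Of 15 genes of the class I pathway, among them B2m, the peptide transporters Tap1 and Tap2, the immunoproteasome subunits and the regulator Nlrc5, 0 were called in Notch3-/- mice (median log2 fold change 0.09) and 0 in TgNotch3R169C mice (-0.04). B2m had changes of 0.16 (95% CI -0.07 to 0.38) and 0.01 (95% CI -0.27 to 0.28), and Nlrc5 of 0.43 (adjusted p = 0.473, edgeR) and -0.07. Of 13 genes of the class II pathway, 0 were called in either, and the class II chaperone Cd74 had changes of -0.01 and 0.03 and the coactivator gene Ciita of 0.03 and 0.01. Between the control groups, where 7.92% of 17643 genes were called, 1 of the 15 class I pathway genes was lower in WT mice. This was Erap1, which trims class I peptides (-0.18, adjusted p = 0.0444, edgeR). Of the 13 class II pathway genes 2 were lower, the protease gene Ctsh (-0.18, adjusted p = 0.0446, edgeR) and the costimulator gene Cd80 (-0.40, adjusted p = 0.0254, edgeR). Rfxank, a subunit of the class II transcription factor RFX, was higher (0.23, adjusted p = 0.0492, edgeR). Of 16 interferon-stimulated genes, Ifit1 (0.77) and Oasl2 (0.53) rose in Notch3-/- mice with a list median of 0.47, where 0.198% of all genes were called higher. In TgNotch3R169C mice 0 were called (median -0.13), against 0.113% of all genes, and 12 were higher in WT than in Notch3+/+ mice, against 3.87% of all genes.

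Summed levels of macrophage and dendritic cell markers overlapped between all 4 groups, and B cell markers reached higher levels at 12 months. In bulk arteries, fewer cells of a type and less RNA per cell cannot be told apart. The 12 macrophage markers summed to 1030 to 1390 CPM in Notch3+/+, 997 to 1430 in Notch3-/-, 1040 to 1350 in WT and 955 to 1360 in TgNotch3R169C mice. The 7 dendritic cell markers summed to 41.6 to 56.6 CPM, 42.2 to 66.6, 42.7 to 60.5 and 43.7 to 63.7 in the same order. None of the macrophage, dendritic cell, B cell or T and NK cell markers was called in either mutant. Over all genes tested, 0.649% were called in Notch3-/- and 0.113% in TgNotch3R169C mice. B cell markers summed to medians of 37.4 CPM in Notch3+/+, 40.7 in Notch3-/-, 64.9 in WT and 102 in TgNotch3R169C mice, and reached 334 CPM in a WT and 512 in a TgNotch3R169C mouse against at most 69.0 at 3 months. Their part in the H2 values was not tested. The arteries had smooth muscle markers in every library, with summed levels of 2710 to 4750 CPM in Notch3+/+ and 1860 to 2870 in Notch3-/- mice. Of these 8 markers 6 fell in Notch3-/- mice, where 0.649% of all genes were called in either direction. The part of this lower level in the H2 values was not tested.

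Across mice, class II levels went with class II machinery. Xist-low and Xist-high libraries were pooled within groups, so differences between them, as for H2-Aa in Notch3-/- mice, enter the coefficients and p-values below. Deviations from the group mean (log2 scale, 32 mice) of H2-Aa correlated with those of Cd74 at Pearson r = 0.99 and Spearman rho = 0.985 (adjusted permutation p = 4.5e-05 and 3e-05), and r was 0.984 without the 2 mice farthest from the median and 0.974 to 0.996 within each of the 4 groups. With Ciita, r was 0.875 and rho 0.717 (adjusted permutation p = 5.4e-05 and 0.00032), 0.781 without the 2 mice and 0.6 to 0.971 within single groups. With the dendritic cell markers, r was 0.857 and rho 0.842 (adjusted permutation p = 4.5e-05 and 3e-05), 0.83 without them and 0.834 to 0.916 within groups. With the macrophage markers, r was 0.614 and rho 0.602 (adjusted permutation p = 0.00026 and 0.001), 0.542 without them and 0.559 to 0.696 within groups. With the B cell markers, r was 0.617 and rho 0.66 (adjusted permutation p = 0.00024 and 3e-05), 0.681 without them and 0.368 to 0.948 within groups. H2-K1 correlated with B2m at r = 0.823 and rho 0.771 (adjusted permutation p = 4.5e-05 for both), 0.698 without the 2 mice and 0.303 to 0.953 within groups. With Nlrc5, r was 0.81 and rho 0.664 (adjusted permutation p = 4.5e-05 and 0.00025), 0.659 without them and 0.367 to 0.929 within groups.

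Other relations of H2-K1 had lower coefficients. With the interferon-stimulated list, r was 0.439 and rho 0.338 (adjusted permutation p = 0.025 and 0.071), and r within single groups ranged from -0.176 to 0.861. With the endothelial markers, r was 0.415 and rho 0.379 (adjusted permutation p = 0.029 and 0.045), r was 0.253 without the 2 farthest mice, and the group values ranged from -0.44 to 0.93. In these 9 relations the smallest p that the 100000 permutations within groups can give is 1e-05.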

How the data were processed

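Arteries of the brain from 32 mice (4 groups of 8) were sequenced after poly(A) selection with a stranded kit, and groups were taken from the labels. The deposited table holds the authors' raw counts of reads for each Ensembl identifier, not normalized. The submitters' processing notes name build mm39, STAR 2.5.3a, HTSeq 0.6.1p1, cutadapt 1.10 and Bowtie2 2.2.8, and the strand and multiple-mapping settings are not given in the sources used here, so losses of reads from near-identical H2 copies are possible. All columns were matched to a library, and replicates differed by 10.09 to 135.5 times counting noise (chi-square per gene).

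Genes were filtered with filterByExpr, scaled by TMM and tested with edgeR 4.0.16 (quasi-likelihood, R 4.3.3) between 2 groups, or with all 4 groups for the difference between mutants. Calls were made at a Benjamini-Hochberg adjusted p below 0.05 over all genes tested, after the fits were checked on simulated counts. Positions, exon lengths, transcripts and shared windows came from GENCODE vM21 on GRCm38, another build than that of the counts, so no coordinate was tied to a read. Correlations used log2(CPM + 0.1), deviations from group means and 100000 permutations within groups.

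The members, gene lists and tests were chosen with earlier results of these data known. Genes named were Notch3, called H2 genes, the classical genes, H2-Ea-ps, H2-Bl, H2-T23, H2-M3, the 2 of each class highest per length, called pathway members with B2m, Nlrc5, Ciita and Cd74, and called genes between H2 genes. H2-Q2, H2-Q5, H2-Q6, H2-Q7, H2-DMa, H2-DMb1, H2-DMb2, H2-Oa, H2-Ob, Ifit1, Oasl2, Xist and Notch3-/- replicate 7 were singled out after their values were seen. Alternatives were RLE scaling, 2 other filters, DESeq2 1.42.0, limma 3.58.1 voom, the replicate number as a block, a macrophage covariate, 1 fit of all 4 groups, each library left out, and, added after seeing the data, Xist as a covariate or a split. The p-values of the group tests set a difference between groups against the spread between mice of a group. Those of the correlations come from the permutations within groups.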

Additional observations from a re-analysis of the deposited data

Results flagged for a closer look

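Gaps within groups were checked for 13 named H2 genes in the 4 groups of 8 mice, which is 52 sets of values, and 10 held a mouse whose gap to its nearest neighbor exceeded Dixon's 95% critical value for 8 samples. Chance alone flags about 1 in 20 sets. Of these 10, 5 came from 1 library: WT replicate 2 at 12 months had 691 CPM of H2-K1, 700 of H2-D1, 558 of H2-Aa, 465 of H2-Ab1 and 451 of H2-Eb1. H2-Bl was high in Notch3+/+ replicate 3 (0.378 CPM) and in TgNotch3R169C replicate 5 (0.573 CPM) and low in Notch3-/- replicate 7 (0.908 CPM), which are counts of few reads in the first 2. H2-T-ps was 2.96 CPM in TgNotch3R169C replicate 8, and H2-T24 was 25.0 CPM in TgNotch3R169C replicate 3.

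For 3 genes the change differed between the 2 mutants by a test of the difference itself (edgeR interaction contrast, change in TgNotch3R169C minus change in Notch3-/- mice). The difference was -2.85 for H2-Bl, -1.63 for H2-T24 and -1.23 for H2-T10 on the log2 scale, with adjusted p-values of 5.88e-05, 0.000213 and 0.00159 (edgeR). H2-Bl passed the filter on low counts only through its Notch3-/- libraries, so its call is partly fixed by the filter. In the Notch3-/- comparison, 8 of 8 mutant mice lay above every control mouse for each of the 3. The 3 were picked by their calls in these same mice, so this separation is no further support. The share of all genes without overlap was not counted.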

How the results depend on the processing

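In Notch3-/- mice, 3 H2 genes were called, against 6 with DESeq2 (with H2-M3, H2-M5 and H2-T22), 5 with limma voom and 3 to 5 with 1 library left out (5 without Notch3-/- replicate 7). With at least 10 counts in every library it was 2, since H2-Bl was filtered out. In TgNotch3R169C mice the count was 0 under every alternative run, and the difference between the mutants was called for 2 to 4 genes. Between the control groups, 3 genes were called, against 1 without a filter, 0 in Xist-low libraries alone, 1 in Xist-high libraries alone and 1 to 4 with 1 library left out (1 without Notch3+/+ replicates 2, 3, 4, 5, 6 or 7 or WT replicates 4 or 5). Without WT replicate 2 the count was 4, with H2-Aa (-0.35) and H2-Eb1 (-0.39) lower, and in Xist-low libraries alone their estimates turned to 0.0519 and 0.0218. The causes of these changes were not tested.

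With the replicate number as a block, 1 gene was called between the control groups (H2-Q10 and H2-T-ps lost their calls), and the counts stayed at 3, 0 and 3 for the Notch3-/- comparison, the TgNotch3R169C comparison and the difference. Same-numbered mice correlated at -0.188 to 0.392, -0.301 to 0.446 and -0.175 to 0.322 in the 3 pairs of groups, so the numbers were not taken to pair the mice. Of the H2 genes never called under any alternative, the sign changed in at least 1 alternative for 14 of 20 in Notch3-/- mice and 18 of 26 in TgNotch3R169C mice. Depth limits the 14 genes with under 100 reads in all, and H2-Bl in control mice, which had 2 to 14 reads at 3 months.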
